A study of Mus musculus with 126 samples.

Results

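The genes described here are 10 of those that act between glucose uptake and the making of lactate, not the whole route. They are the glucose carriers Slc2a1 and Slc2a3 and the enzyme genes Hk1, Hk2, Pfkl, Pfkp, Aldoa, Gapdh, Pgk1 and Ldha. They are a list of named genes, and all 10 were found among the 23420 genes of the deposited count table and passed the filter on low counts that left 15822 genes for testing. The RNA was from mouse embryonic stem cells of the J1 strain, grown on 0.1% gelatin in serum with leukaemia inhibitory factor at 10 ng/ml. Wild type cells and cells labelled Dnmt1-/-, Dnmt3a-/-, Dnmt3b-/- (TKO, without the 3 enzymes that set and maintain DNA methylation) were each given either Trichostatin A (TSA), an inhibitor of histone deacetylases, at a labelled 5 ng/µl, or 0.0033% DMSO, its solvent, for 36 h. Each of these 4 groups had 2 libraries, which the series' design text calls biological replicates. The other 118 samples of the series, on chromatin and transcription factors, were not analysed here. Whether the TKO line is 1 clone is not given in the sources used here.

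In glycolysis, glucose enters through carriers of the facilitative family and is trapped by hexokinase as glucose 6-phosphate. Phosphofructokinase makes the committed step, aldolase splits the hexose, and glyceraldehyde 3-phosphate dehydrogenase and phosphoglycerate kinase extract reducing power and ATP before lactate dehydrogenase regenerates NAD+ by turning pyruvate into lactate. Embryonic stem cells kept in culture are known for a high glycolytic flux. Several of these genes are textbook targets of the hypoxia-inducible factors and of Myc, whose sites share the core ACGTG; the site of Myc and its partner Max is the palindrome CACGTG.

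The region before the start site is shown for 4 genes, since a carrier, a hexokinase, a phosphofructokinase and the lactate dehydrogenase all moved in the same direction with TSA. Each sequence is the 250 bases before the RefSeq start on GRCm38.p6, read 5′ to 3′ on the gene's own strand, and capitals mark ACGTG read on either strand.
Slc2a1: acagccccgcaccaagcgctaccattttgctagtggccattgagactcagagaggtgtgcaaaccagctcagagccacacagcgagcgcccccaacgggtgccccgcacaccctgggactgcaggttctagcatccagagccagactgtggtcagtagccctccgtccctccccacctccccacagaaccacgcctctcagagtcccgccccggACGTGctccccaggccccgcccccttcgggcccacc
Hk2: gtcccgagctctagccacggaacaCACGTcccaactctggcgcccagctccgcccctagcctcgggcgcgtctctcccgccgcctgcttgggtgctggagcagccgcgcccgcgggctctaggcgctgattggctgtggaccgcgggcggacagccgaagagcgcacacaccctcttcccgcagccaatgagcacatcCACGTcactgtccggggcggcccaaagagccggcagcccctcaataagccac
Pfkl: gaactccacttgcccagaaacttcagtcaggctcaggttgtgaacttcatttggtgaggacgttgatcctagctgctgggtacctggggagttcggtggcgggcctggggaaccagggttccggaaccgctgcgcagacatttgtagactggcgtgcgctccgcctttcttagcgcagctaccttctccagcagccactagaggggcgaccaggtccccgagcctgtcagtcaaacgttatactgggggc
Ldha: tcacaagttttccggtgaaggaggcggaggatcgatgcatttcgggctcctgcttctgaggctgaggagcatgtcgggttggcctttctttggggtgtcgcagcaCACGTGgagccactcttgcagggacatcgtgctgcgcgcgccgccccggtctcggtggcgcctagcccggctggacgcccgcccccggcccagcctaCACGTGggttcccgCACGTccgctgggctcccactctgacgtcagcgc
They lie at chr4:119108495-119108744 on the plus strand, chr6:82774455-82774704 on the minus strand, chr10:78009808-78010057 on the minus strand and chr7:46845554-46845803 on the plus strand. Slc2a1 held 1 such site, Hk2 held 2, Ldha held 3, of which 2 were the palindrome, and Pfkl held 0. The RefSeq table had a promoter for 9 of the 10 genes, Slc2a3 being the exception. Over the full windows, which run from 250 bases before to 50 after the start, ACGTG was in 5 of the 9 (Slc2a1, Hk2, Gapdh, Pgk1 and Ldha) and in 19.6% of 32851 promoters of the same length. For each gene 1 start was used, the nearest to its outer end in the deposited exon positions. Aldoa had 3 starts and Hk1 and Ldha 2 each, and which of them is active in these cells was not tested. The match of Gapdh lay after the start, at 42, and that start is 190 bases from the deposited end. CACGTG, which always contains ACGTG, was in Ldha only and in 7.15% of all promoters. GGGCGG, the core of the box bound by Sp1, was in 6 of the 9 and in 35.7% of all, and CCGGAA, the core for the GABPA family, was in Pfkl and Ldha and in 14.9% of all. TGCGCA, a core of the NRF1 motif, was in Pfkl and in 7.76% of all, and AAGATGG, the YY1 core, was in 0 of the 9 and in 6.34% of all. All motifs were read on both strands, and a match is only a run of letters. The median GC content was 64.7% in the 9 windows and 52.7% in all promoters.

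Total counts were 13280631 to 15542527 per library, so 3 counts, the least read as detected, were worth 0.183 to 0.243 normalised CPM (CPM, counts scaled by library depth). The targeted genes were examined first. Dnmt1 was at 464 and 428 normalised CPM with DMSO and 374 and 360 with TSA in wild type cells, and at 135 and 126 with DMSO and 123 and 128 with TSA in TKO cells. Dnmt3a was at 152 to 237 in the 4 wild type libraries and 25.9 to 39.1 in the 4 TKO libraries, and Dnmt3b at 343 to 596 and 43.7 to 76.1. Reads over exons that a deletion leaves in place would not test it. H1f0, a linker histone gene known to rise with deacetylase inhibitors, was higher with TSA by 1.27 ± 0.17 (log2, SE) in wild type and 1.12 ± 0.16 in TKO cells. The other gene set as a check of the response to the inhibitor, Cdkn1a, is not described here. All 12 stem cell markers were at 1 CPM or more in every group, and their summed level was 4473 to 4585 normalised CPM in wild type DMSO, 2397 to 2677 in wild type TSA, 5154 to 5552 in TKO DMSO and 2815 to 3030 in TKO TSA. With TSA, 10 of these 12 were called lower in wild type and 9 in TKO cells (edgeR, adjusted p below 0.05). Over all tested genes 27% were called higher and 25.9% lower in wild type, and 30.8% and 27.9% in TKO cells. Summed markers of trophoblast (8 genes) were at 487 to 745, 1143 to 1264, 60.2 to 85.7 and 138 to 206 in the same order of groups, those of mesenchymal cells (10 genes) at 236 to 462, 297 to 503, 22.2 to 36.7 and 48.3 to 58.3 with Dcn at 0 in TKO TSA, those of neural cells (8 genes) at 342 to 424, 179 to 211, 300.0 to 332 and 165 to 171, and those of endoderm (9 genes) at 19.0 to 23.1, 28.3 to 33.6, 79.0 to 80.7 and 64.5 to 75.6. With TSA, 7 of 8 tested trophoblast markers were called higher and 0 lower in wild type, and 6 and 0 in TKO cells. Of 9 tested mesenchymal markers, 4 were higher and 2 lower in wild type, and 7 and 0 in TKO cells. Of 7 tested neural markers, 1 was higher and 4 lower, and 2 and 3 in TKO cells. Of 9 tested endoderm markers, 2 were higher and 0 lower, and 3 and 1 in TKO cells. The part of these cell types in the results was not tested. In bulk RNA, fewer cells of a type and less RNA per cell cannot be told apart.

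With TSA, most of the 10 genes were lower in both genotypes. In wild type cells, 7 of the 10 genes fell (Slc2a1, Hk2, Pfkl, Aldoa, Gapdh, Pgk1 and Ldha), 2 rose (Slc2a3 and Hk1) and Pfkp did not pass the test. TKO cells had these 7 called lower too, Slc2a3 called higher, and Hk1 and Pfkp not called. Calls are those of edgeR's quasi-likelihood test at an adjusted p below 0.05, and 52.8% of all tested genes were called in wild type (27% higher, 25.9% lower) and 58.7% in TKO cells (30.8% higher, 27.9% lower), so a call in itself was common. The 10 genes had a median log2 fold change of -0.60 in wild type and -0.71 in TKO cells, where the medians of all tested genes were 0.012 and 0.038. In 7 of the 10 genes all 4 TSA libraries lay below all 4 DMSO libraries, as they did in 24.6% of all tested genes, and in 0 of the 10 did they lie above, as in 24.3% of all (48.9% in either direction). With total counts scaling, 6 of the 10 lay below (16.2% of all genes) and 2, Slc2a3 and Hk1, above (32.4% of all). These folds are relative to the bulk of genes: scaling by total counts moved the median of all genes to 0.22 in wild type and 0.19 in TKO cells, and upper quartile scaling to 0.16 and 0.11. With total counts, 5812 genes were called higher and 2433 lower in wild type against 4266 and 4092 in the main fit, and 5908 and 3267 in TKO cells against 4872 and 4412. Among the 10 genes the calls were then 2 higher and 5 lower in wild type and 2 higher and 7 lower in TKO cells. With upper quartile scaling they were 2 and 6, and 1 and 7. Over all genes upper quartile scaling called 5365 higher and 2794 lower in wild type, and 5337 and 3787 in TKO cells.

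**Figure D1:**
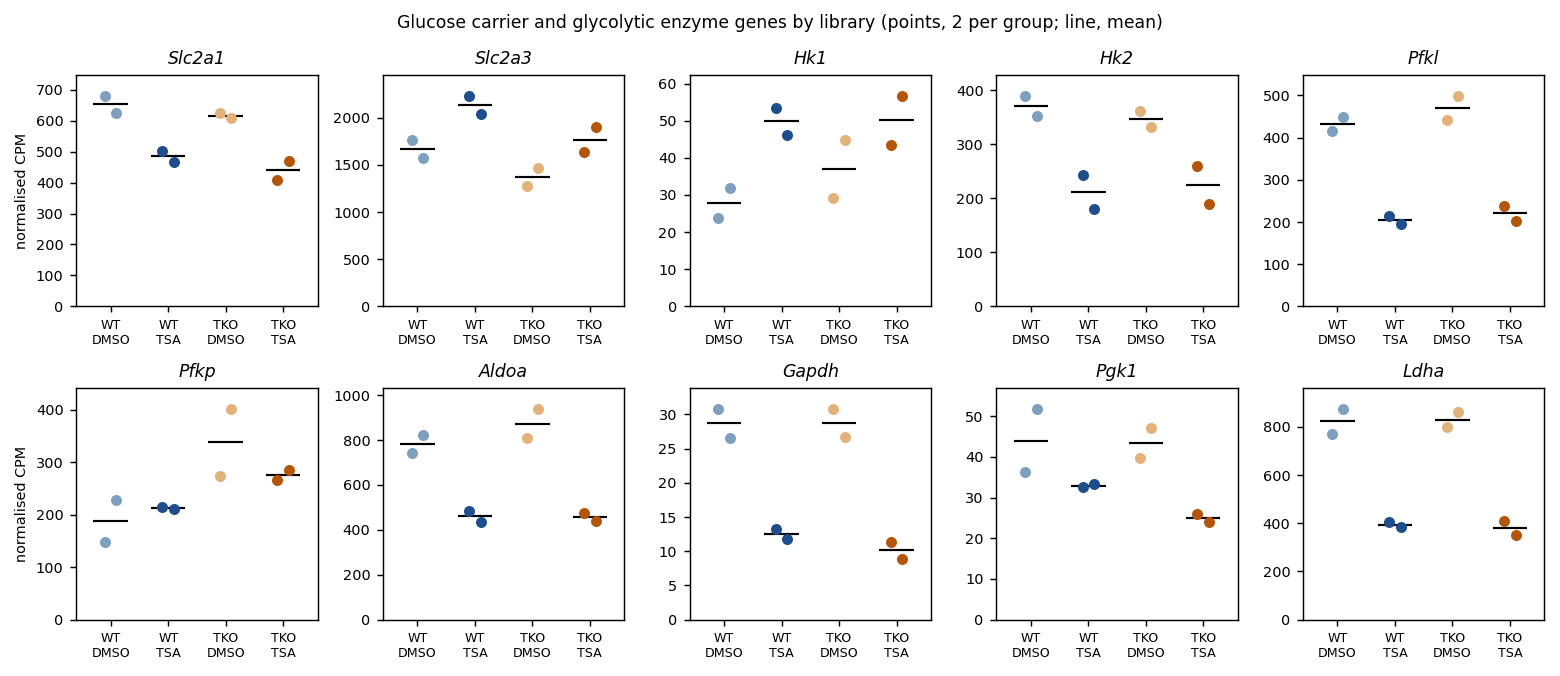
Normalised CPM (vertical axis, from 0) of each of the 10 genes in each of the 8 libraries (points, 2 per group; line, mean), for wild type (WT) and TKO cells with DMSO or TSA. The TSA libraries lie below every DMSO library for Slc2a1, Hk2, Pfkl, Aldoa, Gapdh, Pgk1 and Ldha, while Slc2a3, Hk1 and Pfkp overlap.

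The carriers moved apart. Slc2a1 (chromosome 4, 119108745 to 119137329, plus strand), which encodes GLUT1, the carrier of basal glucose uptake, was at 681 and 624 normalised CPM with DMSO and 503 and 467 with TSA in wild type cells, and at 625 and 607 with DMSO and 409 and 470 with TSA in TKO cells. Both TSA pairs lay below both DMSO pairs. The log2 fold change was -0.43 ± 0.096 (SE) in wild type (adjusted p = 0.00362) and -0.49 ± 0.097 in TKO cells (adjusted p = 0.00132). With total counts scaling the wild type value was -0.22 and no longer called. Slc2a3 (chromosome 6, 122727809 to 122742745, minus strand), encoding the high-affinity carrier GLUT3, was at 1768 and 1569 with DMSO and 2235 and 2044 with TSA in wild type cells, and at 1279 and 1465 with DMSO and 1633 and 1905 with TSA in TKO cells. Within each genotype both TSA libraries were above both DMSO libraries, but TKO TSA replicate 1 lay below wild type DMSO replicate 1. The rise was 0.36 ± 0.11 (adjusted p = 0.0184) in wild type and 0.37 ± 0.11 (adjusted p = 0.0144) in TKO cells. Each call rested on single libraries: in wild type it was lost without DMSO replicate 2 (0.27) or TSA replicate 1 (0.29), and in TKO cells without DMSO replicate 1 (0.27) or TSA replicate 2 (0.25).

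The hexokinases, which phosphorylate glucose, also moved apart. Hk2 (chromosome 6, 82725027 to 82774454, minus strand), the inducible mitochondria-bound form, was at 390 and 351 normalised CPM with DMSO and 243 and 179 with TSA in wild type cells, and at 360 and 332 with DMSO and 261 and 189 with TSA in TKO cells. The fall was -0.81 ± 0.16 on the log2 scale (adjusted p = 0.00181) in wild type and -0.63 ± 0.16 (adjusted p = 0.00639) in TKO cells. Without TKO TSA replicate 2, the lower of its pair, the TKO value was -0.41 and not called. Hk1 (chromosome 10, 62268855 to 62379908, minus strand), the constitutive form of many tissues, was much lower, at 23.9 and 32.0 with DMSO and 53.4 and 46.3 with TSA in wild type cells, and at 29.2 and 44.7 with DMSO and 43.4 and 56.8 with TSA in TKO cells. Its wild type pairs were apart, while the TKO pairs overlapped. The log2 fold change was 0.84 ± 0.21 in wild type (adjusted p = 0.00640) and 0.44 ± 0.21 in TKO cells (adjusted p = 0.0851). The wild type call was lost without DMSO replicate 1 (0.64), and the TKO value ranged from 0.16 to 0.77 with a library left out. It was lowest without TKO DMSO replicate 1, and was called without TKO DMSO replicate 2 (0.77), without TKO TSA replicate 1 (0.62), with total counts scaling (0.59) and with the replicate number as a block (0.45).

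Phosphofructokinase is a tetramer of liver, platelet and muscle type subunits. Pfkl (chromosome 10, 77986949 to 78009796, minus strand), the liver type, was at 416 and 448 normalised CPM in wild type DMSO against 214 and 196 with TSA, and at 442 and 500 in TKO DMSO against 237 and 204 with TSA. The groups did not overlap, and the level fell to less than 0.5 of that in DMSO: the log2 fold change was -1.08 ± 0.11 (adjusted p = 3.42e-05) in wild type and -1.09 ± 0.11 (adjusted p = 1.37e-05) in TKO cells. Pfkl was called lower in 14 of 14 alternatives in each genotype. Pfkp (chromosome 13, 6579874 to 6648724, minus strand), the platelet type, was at 149 and 227 with DMSO and 214 and 212 with TSA in wild type cells, and at 274 and 402 with DMSO and 266 and 286 with TSA in TKO cells. Its DMSO pairs were wide, and the TSA effect was 0.18 ± 0.19 (adjusted p = 0.450) in wild type and -0.29 ± 0.19 (adjusted p = 0.209) in TKO cells. It was called with TSA only without wild type DMSO replicate 2 (0.51) and, in TKO cells, without TKO DMSO replicate 1 (-0.55). Of its exon bases, 276 (6.92%) overlap Pitrm1 on the other strand, and the strand setting of the counting is not given in the sources used here. The muscle type gene Pfkm was at 65.1 to 78.2 in the wild type libraries and 33.6 to 51.8 in the TKO libraries. Its TSA effect was 0.089 ± 0.14 (adjusted p = 0.601) in wild type and 0.36 ± 0.14 (adjusted p = 0.0474) in TKO cells, and the latter call was lost without wild type DMSO replicate 2 (0.35), TKO DMSO replicate 1 (0.16), TKO TSA replicate 1 (0.29) or TKO TSA replicate 2 (0.41), with DESeq2 (0.36) and with no filter on low counts (0.32), and was 0.56 without TKO DMSO replicate 2.

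The genes of the 10 that act in the lower chain all fell. Aldoa (chromosome 7, 126795234 to 126800447, minus strand), the aldolase of muscle and most growing cells, was at 744 and 822 normalised CPM with DMSO and 485 and 436 with TSA in wild type cells, and at 808 and 939 with DMSO and 475 and 441 with TSA in TKO cells. No TSA library came near a DMSO library, and the log2 fold change was -0.77 ± 0.10 (adjusted p = 0.000176) in wild type and -0.93 ± 0.10 (adjusted p = 3.16e-05) in TKO cells. Gapdh (chromosome 6, 125161852 to 125165583, minus strand), whose enzyme makes the NADH of the pathway and whose transcript is often used as a reference in expression assays, was at 30.8 and 26.6 with DMSO and 13.3 and 11.8 with TSA in wild type cells, and at 30.8 and 26.6 with DMSO and 11.3 and 8.92 with TSA in TKO cells. It had the largest fall of the 10 genes, -1.20 ± 0.16 (adjusted p = 0.000168) in wild type and -1.51 ± 0.16 (adjusted p = 2.67e-05) in TKO cells. These values rest on 142 to 450 counts per library, where Aldoa had 6416 to 12902. Pgk1 (chromosome X, 106187124 to 106203699, plus strand), which makes the first ATP of the chain, was at 36.3 and 51.8 with DMSO and 32.6 and 33.3 with TSA in wild type cells, and at 39.8 and 47.1 with DMSO and 25.9 and 23.9 with TSA in TKO cells. The TKO fall was -0.80 ± 0.16 (adjusted p = 0.00151).

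The wild type fall of Pgk1, -0.42 ± 0.16 (adjusted p = 0.0471), was at the edge of the threshold and was called in 4 of 14 alternatives. It was -0.15 without wild type DMSO replicate 2, -0.66 without wild type DMSO replicate 1, -0.21 with total counts scaling and -0.27 with upper quartile scaling. The call was also lost without wild type TSA replicate 1 (-0.40), wild type TSA replicate 2 (-0.43), TKO DMSO replicate 1 (-0.42), TKO DMSO replicate 2 (-0.42) and TKO TSA replicate 1 (-0.42). By contrast Aldoa, Gapdh and Ldha were called lower in 14 of 14 alternatives in each genotype. RefSeq has 3 pseudogenes each for Gapdh, Pgk1 and Ldha and 2 for Aldoa whose symbol is the gene's own with a ps or rs suffix. Pseudogenes under other names were not counted, so these numbers do not measure how far each gene is affected. How reads that match several places were treated is not given in the sources used here, so the absolute levels of these 4 genes are uncertain. Whether their fold changes, and the place of Gapdh as the largest fall, are affected as well was not tested.

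Ldha (chromosome 7, 46845804 to 46855627, plus strand), the subunit that favours lactate formation, was at 771 and 875 normalised CPM with DMSO and 404 and 383 with TSA in wild type cells, and at 798 and 860 with DMSO and 408 and 350 with TSA in TKO cells. The gap between treatments was several times the gap within pairs. The log2 fold change was -1.06 ± 0.10 (adjusted p = 3.25e-05) in wild type and -1.13 ± 0.10 (adjusted p = 1.01e-05) in TKO cells. Ldhb, the subunit that favours the reverse reaction, was at 62.2 and 66.1 with DMSO and 57.8 and 44.4 with TSA in wild type cells, and at 87.1 and 105 with DMSO and 60.8 and 73.5 with TSA in TKO cells. Its TSA effect was -0.33 ± 0.15 (adjusted p = 0.0828) in wild type and -0.52 ± 0.14 (adjusted p = 0.00972) in TKO cells. The former was called without wild type TSA replicate 1 (-0.53) and was -0.15 without wild type TSA replicate 2, -0.12 with total counts and -0.18 with upper quartile scaling. The latter was not called without TKO DMSO replicate 2 (-0.38) or TKO TSA replicate 1 (-0.39).

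**Figure D2:**
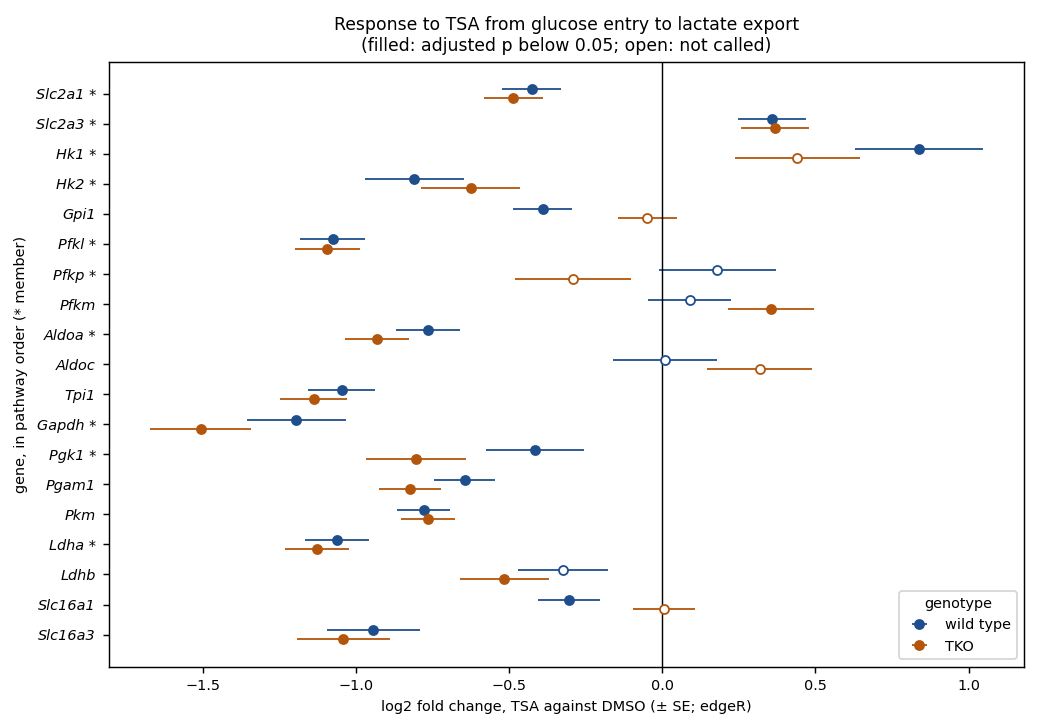
Log2 fold change of TSA against DMSO (horizontal axis; bars, ± SE from edgeR) for genes in the order of the pathway, in wild type and TKO cells; filled points were called at an adjusted p below 0.05 and stars mark the 10 genes. Of the genes shown, those from Aldoa to Pkm sit between -0.42 and -1.51, with Aldoc apart. Slc2a3 and Hk1 are the members to the right of 0 in both genotypes. The enolase genes, of which Eno2 rose and Eno3 fell, and Bpgm and Pgam2 are not shown. Gpi1, Tpi1, Pgam1, Pkm, Slc16a1 and Slc16a3 were chosen after their values were seen.

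Between genotypes the differences were smaller than between treatments for most of the 10. In DMSO, 1 of the 10 was called (20.4% of all tested genes were, 9.63% higher and 10.7% lower), namely Pfkp, which was higher in TKO cells by 0.85 ± 0.19 on the log2 scale (adjusted p = 0.0106). That call was lost without wild type DMSO replicate 1 (0.55) or TKO DMSO replicate 2 (0.54). The other 9 differed by -0.28 to 0.40, with Slc2a3 lowest (adjusted p = 0.0970) and Hk1 highest (adjusted p = 0.210), and the median of the 10 was 0.0062. The value of Hk1 was 0.067 without TKO DMSO replicate 2, 0.19 without wild type DMSO replicate 1, 0.63 without wild type DMSO replicate 2 and 0.68 without TKO DMSO replicate 1, so its place in this order rests on single libraries. With TSA, 0 of the 10 were called between genotypes by edgeR or by DESeq2 (18.4% of all tested genes were called by edgeR, 10% higher and 8.38% lower), 2 had an unadjusted p below 0.05 (Slc2a3, -0.27, and Pgk1, -0.40), and the median was -0.031. Pgk1 was called without wild type DMSO replicate 1 (-0.41) or wild type DMSO replicate 2 (-0.40).

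The TSA effect was then compared between genotypes by the interaction, which subtracts the wild type log2 effect from the TKO one. Of the 10 genes 0 were called by edgeR or DESeq2, 0 had an unadjusted p below 0.05, and 1.35% of all tested genes were called (0.879% higher, 0.468% lower). The differences were -0.060 ± 0.14 for Slc2a1, 0.0084 ± 0.16 for Slc2a3, -0.40 ± 0.29 for Hk1, 0.18 ± 0.23 for Hk2, -0.017 ± 0.15 for Pfkl, -0.47 ± 0.27 for Pfkp, -0.17 ± 0.15 for Aldoa, -0.31 ± 0.23 for Gapdh, -0.39 ± 0.23 for Pgk1 and -0.065 ± 0.15 for Ldha, with adjusted p from 0.471 to 0.991. Differences of the size of these errors could not be seen with 2 libraries per group. Hk1, called in wild type and not in TKO cells, is thus not shown to differ between them.

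Within a library, the ratio of 2 genes does not depend on how the library is scaled. The count ratio of Slc2a3 to Slc2a1 was 2.60 and 2.52 with DMSO and 4.44 and 4.38 with TSA in wild type cells, and 2.04 and 2.41 with DMSO and 3.99 and 4.05 with TSA in TKO cells. Every TSA library was above every DMSO library, and the mean log2 ratio rose from 1.35 to 2.14 in wild type and from 1.15 to 2.01 in TKO cells. Hk2 to Hk1 was 16.3 and 11.0 with DMSO and 4.56 and 3.87 with TSA in wild type cells, and 12.3 and 7.44 with DMSO and 6.01 and 3.32 with TSA in TKO cells, so the inducible form was the more abundant in all 8 libraries but less so with TSA. Pfkp to Pfkl was 0.358 and 0.507 with DMSO and 1.00 and 1.08 with TSA in wild type cells, and 0.621 and 0.804 with DMSO and 1.12 and 1.40 with TSA in TKO cells. The liver type thus had the larger count in every DMSO library and an equal or smaller one with TSA. The ratio of Ldhb to Ldha, added after the data were seen, was 0.0807 and 0.0755, 0.143 and 0.116, 0.109 and 0.122, and 0.149 and 0.210 in the same order of groups. In the ratios of carriers, hexokinases and phosphofructokinases the TSA and DMSO libraries did not overlap, nor did they for lactate dehydrogenase within a genotype. These ratios are descriptions and were not tested.

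**Figure D3:**
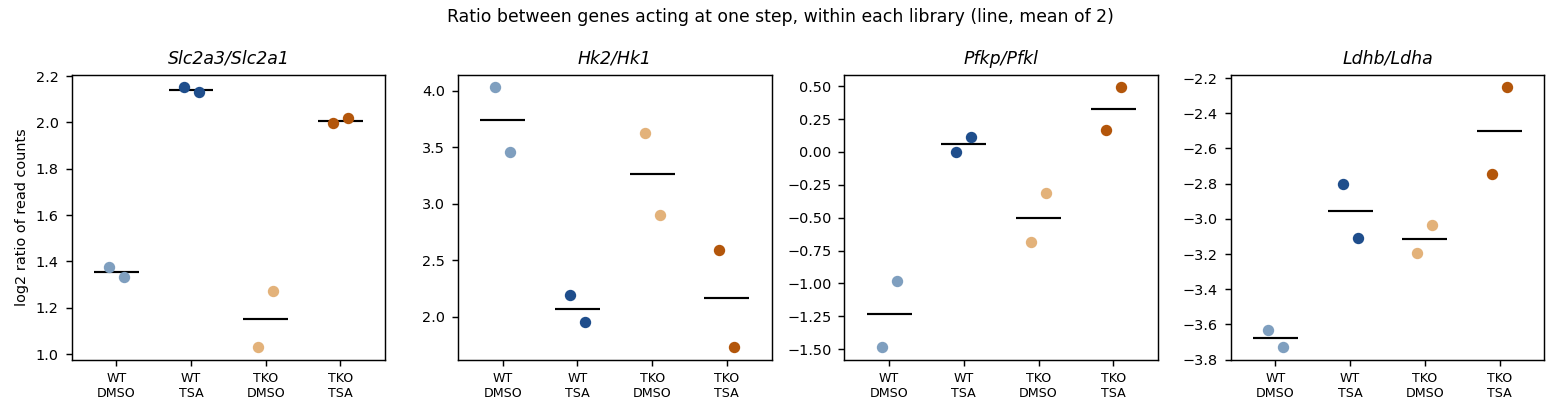
Log2 ratio of read counts (vertical axis, each panel with its own range) between genes that act at the same step, in each of the 8 libraries (points; line, mean of 2). TSA libraries are higher for Slc2a3/Slc2a1, Pfkp/Pfkl and Ldhb/Ldha and lower for Hk2/Hk1 than the DMSO libraries of the same genotype.

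Per kilobase of exon, the 10 genes spanned a wide range. In wild type DMSO, Aldoa (429 normalised CPM per kb), Ldha (426) and Slc2a3 (421) led and their libraries overlapped, followed by Slc2a1 (254), Pfkl (116), Hk2 (67.2) and Pfkp (47.2), then by Pgk1 (24.4) and Gapdh (23.3), which overlapped, and Hk1 (6.20). In TKO DMSO the leaders were Aldoa (479) and Ldha (430), which overlapped, then Slc2a3 (346) and Slc2a1 (240). With TSA, Slc2a3 stood alone at the top, at 540 in wild type and 447 in TKO cells, ahead of Aldoa (252 and 251) and Ldha (204 and 196), the latter overlapping Slc2a1 (171) in TKO cells. At the low end, Hk1 (11.1 in both) no longer lay below Gapdh (10.2 and 8.20), though their libraries overlapped in wild type cells. How reads that match several places were treated is not given. The places of Aldoa, Gapdh, Pgk1 and Ldha in these orders are therefore uncertain, and a low level of Gapdh is not established.

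Summed per kilobase, the carriers overlapped between treatments and the enzymes did not. The carriers were at 675 ± 51.2 normalised CPM per kb with DMSO and 729 ± 44.2 with TSA in wild type cells (SD, n = 2 each), and at 586 ± 28.3 and 618 ± 65.3 in TKO cells (SD, n = 2 each). The libraries overlapped within each genotype, with means differing by 8.01% and 5.42%. With total counts scaling the means differed by 24.4% and 16.9% and the libraries no longer overlapped. The 8 enzymes were at 1140 ± 88.2 with DMSO and 643 ± 40.2 with TSA in wild type cells, and at 1238 ± 106 and 650 ± 46.7 in TKO cells (SD, n = 2 each). That is a difference of -43.6% and -47.5% (-35.1% and -41.9% with total counts scaling), and no TSA library reached a DMSO library. Without Gapdh and Pgk1 the differences were -43.8% and -47.3%. Aldoa (429) and Ldha (426) made up most of the 1140 in wild type DMSO, so the sum mainly follows these genes. It does not describe each of the 8, since Hk1 rose in wild type and Pfkp was called in neither genotype. Together the 10 genes took 0.391% to 0.499% of all counts in a library.

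**Figure D4:**
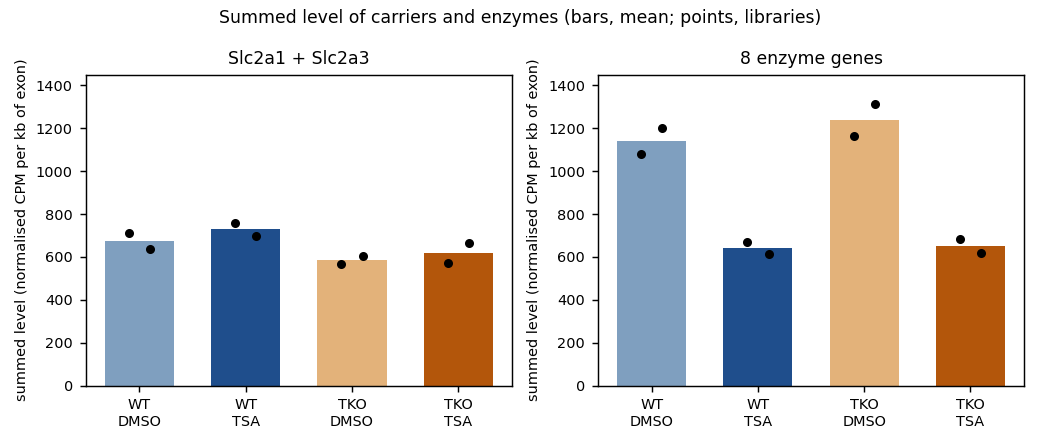
Summed normalised CPM per kilobase of exon (vertical axis, from 0) of both carriers (left) and of the 8 enzyme genes (right) by group; bars are means of 2 libraries and points are libraries. Carrier sums overlap between treatments within a genotype on this scale, and the enzyme sums with TSA, 643 and 650 on average, lie below those with DMSO, 1140 and 1238.

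Other glycolytic enzyme genes were called in both directions. Of 20 tested among 23, 6 were higher, 6 lower and 8 not called in wild type (27% higher and 25.9% lower over all tested genes), and 7, 9 and 4 in TKO cells (30.8% and 27.9% over all). Their medians were -0.27 and -0.26, and -0.069 and -0.11 with total counts and -0.12 and -0.18 with upper quartile scaling. Of the other genes named below, Gpi1, Tpi1, Pgam1, Pkm, Gm5506, Slc16a1, Slc16a3, Pfkfb3, Pdha1, Pdk1, Hif1a, Arnt and Bnip3 were chosen after their values were seen. Tpi1 (triose phosphate isomerase; 1.44% of its exon bases overlap Spsb2) was at 421 and 474 normalised CPM with DMSO and 235 and 198 with TSA in wild type cells, and fell by 1.05 on the log2 scale there (SE 0.11) and by 1.14 in TKO cells (SE 0.11). Pkm (pyruvate kinase) was at 2273 and 2286 with DMSO and 1388 and 1267 with TSA in wild type cells, with a log2 fold change of -0.78 ± 0.087 in wild type and -0.77 ± 0.087 in TKO cells. Pgam1 (phosphoglycerate mutase) had -0.65 ± 0.10 and -0.82 ± 0.10. Gpi1, which links hexokinase to phosphofructokinase, had -0.39 ± 0.096 (adjusted p = 0.00585) in wild type and -0.049 ± 0.096 (adjusted p = 0.674; 0.0998 with total counts scaling) in TKO cells. Its wild type call was lost without wild type TSA replicate 2 (-0.33) and with total counts (-0.19) or upper quartile scaling (-0.24), and the interaction was not called (0.34). Of the exon bases of Eno1, the main enolase gene, 92.8% are also exon bases of Gm5506, so reads of the pair cannot be assigned; Gm5506 had -0.78 ± 0.13 and -0.76 ± 0.13. The genes that rose included tissue-restricted forms such as Eno2, the neuronal enolase, at 6.28 and 5.84 with DMSO and 11.4 and 11.8 with TSA in wild type cells (0.94 ± 0.20, and 0.92 ± 0.22 in TKO cells). Eno3, the muscle enolase, fell by 0.85 in wild type and 1.92 in TKO cells.

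Of 13 tested transporters among 16 outside the 10, 7 were higher, 2 lower and 4 not called in wild type (27% higher and 25.9% lower over all tested genes), and 6, 2 and 5 in TKO cells (30.8% and 27.9% over all), with medians of 0.76 and 0.61. With total counts scaling, 9 were higher and 1 lower in wild type and 6 and 2 in TKO cells. Over all genes that scaling called 5812 of 15822 higher and 2433 lower in wild type, and 5908 and 3267 in TKO cells. Slc2a13, a proton and myo-inositol carrier of the same family, was at 0.324 and 0.357 normalised CPM with DMSO and 3.53 and 3.54 with TSA in wild type cells (log2 fold change 3.34 ± 0.36, and 3.28 ± 0.34 in TKO cells). Slc2a12 had 2.33 ± 0.45 and 2.65 ± 0.57, from at most 1.07 normalised CPM in DMSO. Slc16a7, a monocarboxylate carrier, had 2.53 ± 0.53 and 3.33 ± 0.60, from at most 0.500 normalised CPM in DMSO. Slc16a3, the lactate exporter MCT4, fell instead: it was at 205 and 241 with DMSO and 134 and 97.5 with TSA in wild type cells, and at 277 and 254 with DMSO and 143 and 116 with TSA in TKO cells (-0.94 ± 0.15 and -1.04 ± 0.15). Slc16a1, encoding MCT1, was near 365 to 508 throughout, with -0.30 ± 0.10 (adjusted p = 0.0260) in wild type and 0.0055 ± 0.10 (adjusted p = 0.966) in TKO cells. That wild type call was lost without wild type DMSO replicate 2 (-0.16), wild type TSA replicate 1 (-0.35) or wild type TSA replicate 2 (-0.27), and with total counts (-0.10) or upper quartile scaling (-0.16).

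The lists of genes that adjust flux into and out of the pathway held calls in both directions, and the shares over all tested genes to set beside them are 27% higher and 25.9% lower in wild type and 30.8% and 27.9% in TKO cells. Txnip, which encodes an arrestin that removes glucose carriers from the membrane and whose transcript follows glucose phosphates, was at 243 and 295 normalised CPM with DMSO and 583 and 684 with TSA in wild type cells, and at 290 and 374 with DMSO and 873 and 1125 with TSA in TKO cells. It rose by 1.24 ± 0.16 (adjusted p = 0.000113) and 1.59 ± 0.16 (adjusted p = 1.52e-05), and its relative Arrdc4 by 1.00 ± 0.19 and 1.12 ± 0.19 (0.74 in TKO cells without TSA replicate 2). Of the 10 genes listed for the fructose 2,6-bisphosphate switch and glucose feedback, 4 were higher and 1 lower in wild type, and 5 and 3 in TKO cells, including Pfkfb2 at 0.63 ± 0.12 and 0.59 ± 0.11. In wild type 7 were higher and 1 lower with total counts scaling, and 6 and 1 with upper quartile scaling. Over all 15822 genes, total counts scaling called 5812 higher and 2433 lower in wild type, and 5908 and 3267 in TKO cells. Upper quartile scaling called 5365 higher and 2794 lower in wild type. At the entry of pyruvate to mitochondria, 3 of 14 genes were higher and 6 lower in wild type, and 4 and 6 in TKO cells. Pdha1, a subunit of pyruvate dehydrogenase, had -0.93 ± 0.091 and -0.94 ± 0.091, and Pdk1, the kinase that inhibits it, -0.93 ± 0.19 and -1.09 ± 0.19. Pdp1, the phosphatase that reactivates it, rose by 0.96 ± 0.11 and 0.75 ± 0.11. In the pentose phosphate list of 10 genes, 3 were higher and 4 lower in wild type and 2 and 3 in TKO cells (4 and 3, and 2 and 2, with total counts scaling): Tkt, transketolase, was at 868 and 830 with DMSO and 437 and 374 with TSA in wild type cells (-1.07 ± 0.10, and -0.80 ± 0.10 in TKO cells), while its relative Tktl2 rose by 2.96 ± 0.33 and 2.87 ± 0.23 from 1.71 and 2.67 in wild type DMSO. Of 14 tested genes among 18 for gluconeogenesis and glycogen, 7 were higher and 3 lower in wild type and 5 and 5 in TKO cells, with Pygb, the brain type glycogen phosphorylase, higher by 0.95 ± 0.13 and 1.63 ± 0.13.

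Of 10 genes for hypoxia-inducible factors and their regulators, 0 were higher and 3 lower in wild type (27% and 25.9% over all tested genes), and 0 and 5 in TKO cells (30.8% and 27.9% over all). With total counts scaling 0 were higher and 1 lower in wild type (5812 and 2433 over all 15822). In TKO cells 2 were then higher and 4 lower (5908 and 3267 over all). The medians were -0.15 and -0.26, and 0.058 and -0.11 with total counts scaling. Hif1a, the oxygen-labile subunit, was at 310 and 376 normalised CPM with DMSO and 238 and 277 with TSA in wild type cells, and at 402 and 376 with DMSO and 313 and 282 with TSA in TKO cells. Its log2 fold change was -0.41 ± 0.12 (adjusted p = 0.0112) in wild type and -0.39 ± 0.11 (adjusted p = 0.0129) in TKO cells. In wild type that call was lost without DMSO replicate 2 (-0.27) or TSA replicate 1 (-0.31), and with total counts (-0.21) or upper quartile scaling (-0.27). In TKO cells it was lost without DMSO replicate 1 (-0.35) or TSA replicate 2 (-0.32), and with total counts (-0.24). Egln2, a prolyl hydroxylase that marks the factor for decay, had -0.92 ± 0.13 and -1.02 ± 0.13. Textbook targets outside glycolysis did not move as one: of 13 tested among 14, 6 were higher and 2 lower in wild type and 5 and 2 in TKO cells, with medians of 0.37 and 0.41 (0.58 and 0.56 with total counts scaling). The histone demethylase gene Kdm3a, at 235 and 269 with DMSO and 110 and 105 with TSA in wild type cells, had -1.23 ± 0.093 and, in TKO cells, -1.53 ± 0.093. Bnip3, a mitophagy receptor, had -1.04 ± 0.23 (-0.53 without wild type DMSO replicate 2) and -1.03 ± 0.22. Ero1l, an oxidase of the endoplasmic reticulum, had 0.51 ± 0.15 and 0.61 ± 0.15, and its wild type call was lost without DMSO replicate 1 (0.28) or TSA replicate 2 (0.35) and was 0.77 without DMSO replicate 2. Mxi1 was called higher in both genotypes, by at most 0.40. Its wild type call was lost without DMSO replicate 1 (0.30) or TSA replicate 2 (0.33). Its TKO call was lost without DMSO replicate 1 (0.22), TSA replicate 1 (0.31) or TSA replicate 2 (0.33), with DESeq2 (0.33) and with no filter on low counts (0.29). The 2 falling genes named are thus not typical of this list.

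**Figure D5:**
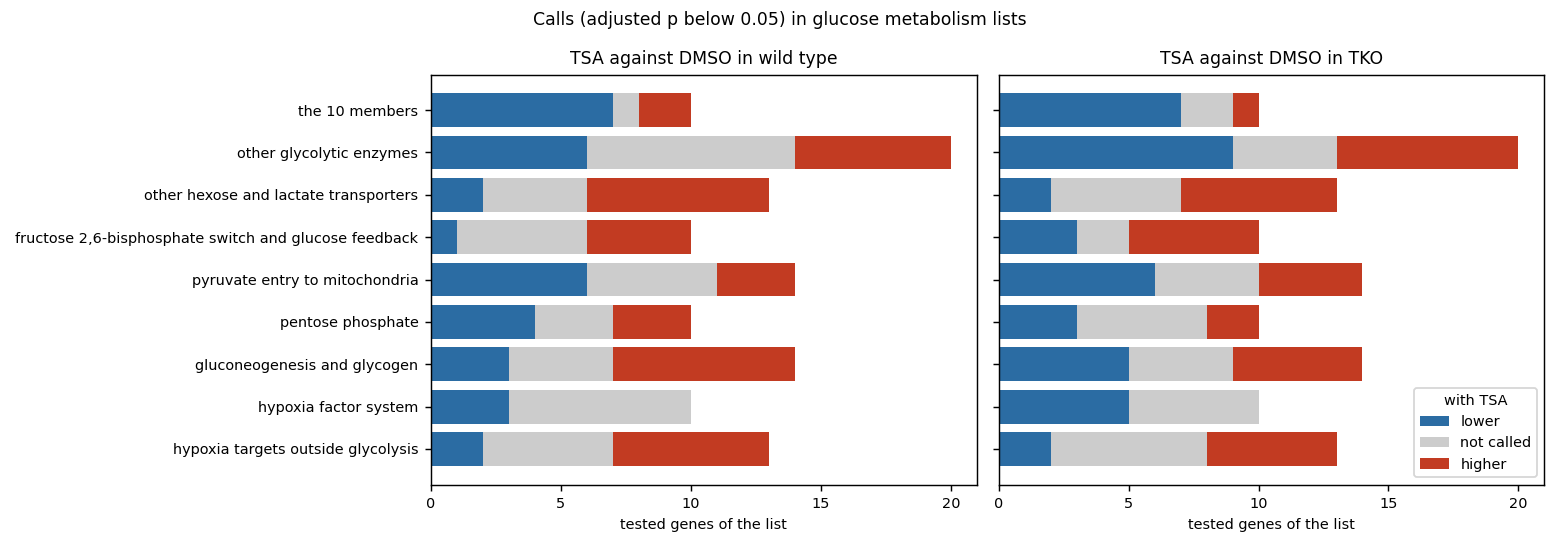
Number of tested genes (horizontal axis) called lower, not called and called higher with TSA in the 10 genes and in 8 lists around glucose metabolism, in wild type (left) and TKO cells (right). The 10 genes have 7 lower in both panels, and the list of hypoxia factors and regulators has 0 higher on this scaling (2 in TKO cells with total counts scaling).

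The mean profile of the 10 genes over the 8 libraries was compared with that of 10015 other tested genes whose mean was 10 CPM or more. Tapt1 had the highest Pearson r, 0.994, followed by Rabif (0.983), St6galnac6 (0.982), Zfp866 (0.981) and Stk38 (0.981). An r above 0.9 was found for 11.4% of these genes, so the profile, which mainly separates treatments, was common. Against the mean of the other members, r was 0.973 for Aldoa, 0.940 for Ldha, 0.934 for Pfkl, 0.875 for Gapdh, 0.863 for Pgk1, 0.821 for Slc2a1 and 0.774 for Hk2, but 0.0375 for Pfkp, -0.670 for Hk1 and -0.739 for Slc2a3. These are descriptions over 8 libraries that share treatments, and they carry no test.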

How the data were processed

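RNA-seq measured gene expression in 8 libraries, 4 groups of 2. Per the labels' protocols, total RNA was depleted of ribosomal RNA and made into directional libraries that were sequenced as read pairs. The authors deposited raw read counts per gene with exon positions and exon length; the submitters' processing notes name mm10, TopHat2 2.0.13, featureCounts 1.4.5-p1 and edgeR 3.22.3. The strand setting and multi-mapping rule are not given in the sources used here. RefSeq promoters are on GRCm38.p6, the assembly of mm10.

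From these counts, filterByExpr, TMM scaling and edgeR 4.0.16 (R 4.3.3) gave 1 quasi-likelihood model with a mean per group over all 8 libraries (4 residual degrees of freedom, coefficient of variation 10.3%). All 5 contrasts were two-sided, with Benjamini-Hochberg adjustment over all 15822 genes tested. SE were derived from the fold change and F. The script was tested on simulated data. Alternatives were DESeq2 1.42.0, other scalings, no filter, a replicate block, only the groups compared, and leaving out each library. With 2 against 2, an exact permutation test cannot go below 0.333. The floor of 3 counts covers counting error only, while SE and SD hold the spread between libraries.

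The members and lists were chosen with earlier results of these data known. Beyond the members and the paralogues of each step, at most 3 genes per list were named, those called in the most contrasts at a mean of at least 1 CPM; others are stated as chosen later.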

Additional observations from a re-analysis of the deposited data

Results flagged for a closer look

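Among the members and the other genes named here, the effect of TSA differed between genotypes by the interaction test for 2 genes, neither of them among the 10. Eno3 was the 1 called of 20 tested other glycolytic enzyme genes. Pfkfb3 was the 1 called of 10 genes for the fructose 2,6-bisphosphate switch and glucose feedback. The remaining lists held 0 calls, and 1.35% of all tested genes were called, so 2 calls are not read as a trait of these lists. Eno3, the muscle enolase, was at 35.8 and 34.7 normalised CPM with DMSO and 22.4 and 16.7 with TSA in wild type cells, and at 52.1 and 52.6 with DMSO and 14.4 and 13.2 with TSA in TKO cells. Within each genotype both TSA libraries lay below both DMSO libraries. The TSA effect on Eno3 was lower in TKO than in wild type cells by 1.07 on the log2 scale (a difference of -1.07, adjusted p = 0.0352, edgeR). The call was lost without wild type DMSO replicate 1 (-1.09), wild type TSA replicate 1 (-0.84), TKO DMSO replicate 1 (-1.08), TKO DMSO replicate 2 (-1.07) or TKO TSA replicate 2 (-1.01).

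Pfkfb3, which makes the activator of phosphofructokinase, was at 30.5 and 24.5 normalised CPM with DMSO and 32.6 and 33.0 with TSA in wild type cells, and at 19.4 and 24.3 with DMSO and 10.6 and 11.7 with TSA in TKO cells. The effect was 0.25 ± 0.15 (adjusted p = 0.183) in wild type and -0.97 ± 0.16 (adjusted p = 0.000461) in TKO cells, a difference of -1.22 (adjusted p = 0.0325, edgeR). The wild type effect was called with total counts (0.45) and upper quartile scaling (0.40), and ranged from 0.096 (without wild type DMSO replicate 2) to 0.42 (without wild type DMSO replicate 1). The call of the difference was lost without TKO DMSO replicate 1 (-1.37), TKO DMSO replicate 2 (-1.05), wild type TSA replicate 1 (-1.23), wild type TSA replicate 2 (-1.21), TKO TSA replicate 1 (-1.15) or TKO TSA replicate 2 (-1.30). With DESeq2 both differences were called (-1.08 for Eno3 and -1.23 for Pfkfb3).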

How the results depend on the processing

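Of 290 member values under alternatives other than leaving out a library, 270 kept their direction and side of the threshold, 5 lost and 4 gained a call, and 11 changed sign; of 400 with a library left out, 349, 14, 6 and 31. No member's TSA effect changed sign except that of Pfkp (wild type -0.10 to 0.51, TKO -0.55 to 0.0046 with a library left out). The list counts, the overlap of libraries under other scalings and the Ldhb to Ldha ratio were added after seeing the data. Among the other named genes, 549 of 585 and, with a library left out, 709 of 784 values stayed. The cause of the changes was not tested.

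Signs changed for differences near 0. With total counts, upper quartile scaling and no filter, the interaction of Slc2a3 was -0.046, -0.066 and -0.018, the TKO difference of Hk1 with TSA -0.025, -0.034 and -0.0035 (replicate block -0.020, only the 2 groups -0.0054), and that of Pgk1 with DMSO 0.0062, 0.012 and 0.00032. With total counts and upper quartile scaling, TSA effects in wild type were 0.076 and 0.019 for Epas1, 0.14 and 0.086 for Egln1, and 0.18 and 0.13 for Slc2a8, and in TKO cells 0.0998 and 0.027 for Gpi1. Without the filter and with only the 2 groups, the TKO effects were -0.034 and -0.010 for Slc2a5 and -0.030 and -0.0059 for Slc16a1. With a library left out, interactions ranged over -0.16 to 0.037 (Slc2a1), -0.11 to 0.12 (Slc2a3), -0.067 to 0.42 (Hk2), -0.13 to 0.091 (Pfkl) and -0.18 to 0.042 (Ldha). TKO differences with TSA ranged over -0.20 to 0.19 (Hk1), -0.16 to 0.32 (Hk2), -0.0084 to 0.21 (Pfkl), -0.082 to 0.070 (Aldoa) and -0.17 to 0.054 (Ldha), and with DMSO over -0.11 to 0.10 (Gapdh), -0.27 to 0.26 (Pgk1) and -0.095 to 0.10 (Ldha). TSA effects ranged over -0.29 to 0.041 (Epas1), -0.14 to 0.0010 (Egln1), -0.054 to 0.21 (Pfkm), -0.16 to 0.16 (Aldoc) and -0.17 to 0.10 (Slc2a8) in wild type and -0.22 to 0.23 (Slc2a5), -0.14 to 0.032 (Gpi1) and -0.030 to 0.030 (Slc16a1) in TKO cells.

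Member counts with TSA were 7 to 9 in wild type and 6 to 9 in TKO cells with a library left out, where 5780 to 8279 and 7123 to 9839 of all genes were called (8358 and 9284 with every library); between genotypes they were 0 to 1 with DMSO and 0 to 1 with TSA, and 2 (Pfkp and Pgk1) with TSA when only the 2 groups were fitted. Over all genes, interaction calls were 488 without the filter, 394 with DESeq2, 633 with the replicate block and 10 to 410 with a library left out, against 213; genotype calls were 1458 to 3330 with DMSO and 941 to 3443 with TSA, against 3221 and 2910. The summed level of the 10 genes changed with TSA by -0.40 in wild type and -0.53 in TKO cells (log2), by -0.20 and -0.38 with total counts and by -0.26 with upper quartile scaling in wild type. Same-numbered libraries deviated together with r of 0.0485 to 0.389 over 6 pairs of groups, and the labels do not say what a number shares. The replicate block called 9 members in each genotype with TSA, Hk1 in TKO cells (0.45) being the gain. Calls over all genes rose too with the block, to 9256 of 15822 in wild type and 10039 in TKO cells, against 8358 and 9284. Precision is limited by 2 libraries per group. Gapdh, Pgk1 and Hk1 had the lowest counts of the 10. The SE of their wild type TSA effects were 0.16, 0.16 and 0.21, against 0.16 for Hk2 and 0.19 for Pfkp. The part of low counts in this spread was not tested.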
